A study of Mus musculus with 40 samples.

Results

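The 42 genes described here encode the lysosome and the proton pump that acidifies it, and they were taken by symbol from the count and RPKM tables, in which 42 of 47729 listed symbols matched. They fall into 7 classes: 5 subunits of the membrane sector (V0) of the vacuolar ATPase, 8 subunits of its cytosolic sector (V1), 2 accessory proteins of the pump, 10 proteases, 7 lipid and glycan hydrolases with their activator, 7 proteins of the membrane and of cholesterol export, and the 3 transcription factors Tfeb, Tfe3 and Mitf. RNA was sequenced from 40 libraries of the mouse mammary gland, 5 in each of 8 groups. All 40 mice were of the Balb/cJ strain and had lost their ovaries at 21 days of age, so the controls were ovariectomised too. After 7 days of recovery they were given an AIN 93G based control diet, that diet holding 2.7% fat in the form of conjugated linoleic acid (CLA, a set of fatty acid isomers), or the control diet with estrogen at 200 nM in the drinking water. Estrogen-treated mice were killed 60 h or 84 h after treatment began and CLA-fed mice at 108 h or 132 h, each beside controls of the same time (Control_60h, Control_84h, Control_108h and Control_132h). Estrogen and CLA were never sampled at the same time. The tissue was a piece of a number 4 inguinal gland without its lymph node, which holds fat, ducts, vessels and immune cells. The series title names growth of the gland under dietary CLA that does not need estrogen as its subject.

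The vacuolar ATPase (V-ATPase) is a rotary machine: its V1 sector splits ATP and turns a rotor that drives protons through the V0 sector into the lysosome. The acid keeps cathepsins and other hydrolases active, and these break down proteins, lipids and glycans that arrive by endocytosis, phagocytosis or autophagy, while membrane proteins shield the membrane and export cholesterol and other products. The MiT/TFE factors Tfeb, Tfe3 and Mitf enter the nucleus under starvation or lysosomal stress and bind an E-box, CACGTG, often flanked by T and A, in promoters of lysosomal genes. In the mammary gland lysosomes are best known from milk-producing epithelium and involution, and they are abundant in macrophages, which clear dead cells and lipid.

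The E-box core was present in the promoters of part of the members, and 4 promoters that carry it are shown because they come from different classes and overlap no annotated exon. RefSeq promoters (GRCm38.p6) were found for 35 of the 42 members, and the 250 bases before each start site were searched for exact matches on both strands. CACGTG occurred before 10 of the 35 members (28.6%), against 6.86% of the 27025 genes of the table. TCACGTG, read also as CACGTGA, occurred before 9 members (25.7%) against 3.58% of genes. The palindrome TCACGTGA occurred before 5 (14.3%) against 0.907%. Each longer motif holds the shorter ones, so these counts overlap. The comparison took in all genes with a promoter, expressed here or not, and a gene counted if any of its start sites matched. The shares were not tested. The 10 genes were Atp6v0b, Atp6v1a, Ctsa, Ctsd, Ctsl, Lgmn, Gla, Glb1, Lamp1 and Mcoln1. No promoter of an accessory protein or of the 3 factors held the core. Below, capitals mark the core with a flanking T or A, and each sequence runs 5′ to 3′ on the strand of its gene.
Atp6v1a: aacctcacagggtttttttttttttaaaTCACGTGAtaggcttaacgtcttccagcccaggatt
Lgmn: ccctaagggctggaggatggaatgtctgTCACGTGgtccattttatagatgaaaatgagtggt
Glb1: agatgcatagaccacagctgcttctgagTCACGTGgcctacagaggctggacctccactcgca
Lamp1: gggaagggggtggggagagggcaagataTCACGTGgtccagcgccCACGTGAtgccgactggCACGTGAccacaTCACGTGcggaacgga
The stretches lie at chr16:44139356-44139419 and chr12:102439108-102439170 on the minus strand and at chr9:114401001-114401063 and chr8:13159071-13159160 on the plus strand. In the GENCODE annotation of GRCm38 those of Atp6v1a and Lgmn lie in introns of longer models of the same genes, and those of Glb1 and Lamp1 lie upstream of the gene. The Lamp1 promoter held 4 matches within 90 bases, the last ending 9 bases before the start site. A match describes the letters and does not show that a factor was bound.

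Libraries held 18183713 to 40026800 counts in genes. The tissue label was checked on marker genes: the adipocyte gene Fabp4 averaged 6751 RPKM over the 40 libraries, and Krt19 and Krt5, keratins of luminal and basal epithelium, averaged 19.2 and 15.9 RPKM. Genes of skin and hair, with the hair keratin Krt71 at 37.3 RPKM on average, were high in 9 libraries, made up of 5 controls (2 of the 108 h group and 3 of the 132 h group) and 4 estrogen libraries. No CLA library was among them, so results of the members with and without those 9 are given where they differ. Animal numbers in the labels fall into separate runs, and the estrogen-treated mice came from a run that held no control, so run and estrogen cannot be told apart. Both CLA groups shared runs with their controls.

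Nearly every member was higher in the glands of CLA-fed mice, and nearly none changed with estrogen. A gene is said to rise or fall where edgeR's quasi-likelihood test gave a Benjamini-Hochberg adjusted p below 0.05 over all genes tested, and 41 of the 42 members passed the filter on low counts. At 108 h, 40 of 41 members rose with CLA and 0 fell, against 24.9% of all 17248 genes called higher and 23.0% called lower. At 132 h all 41 tested members rose, against 27.0% of 17180 genes called higher and 29.0% called lower. The members' median log2 fold change was 0.72 at 108 h and 0.95 at 132 h, while that of all genes tested was -0.01 and -0.03. Over all genes 4293 rose and 3968 fell at 108 h, and at 132 h the numbers were 4638 and 4975. In limma on log2(RPKM + 0.1) the split was 5243 to 2859 and 6455 to 3098, and 40 and 42 of the 42 members rose. The majority at 108 h turned with RLE scaling (4042 higher, 4297 lower), in DESeq2 (4136 and 4414) and with upper-quartile scaling (3592 and 4907). A rise of at least 1 log2 unit was called for 16 members at 108 h, against 6.03% of genes, and for 19 at 132 h, against 7.79%. All 5 CLA libraries lay above all 5 controls for 37 of the 41 tested members at 108 h (18.1% of genes) and for 38 at 132 h (20.9% of genes). In pieces of whole gland, more cells of a type rich in lysosomes and more RNA per cell cannot be told apart. Of 16 macrophage genes, 14 and 15 rose in the same 2 comparisons, and their part in the result was not tested. Members were chosen by function with earlier results of these data known, so these counts describe them and do not set them apart from other gene sets.

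**Figure D1:**
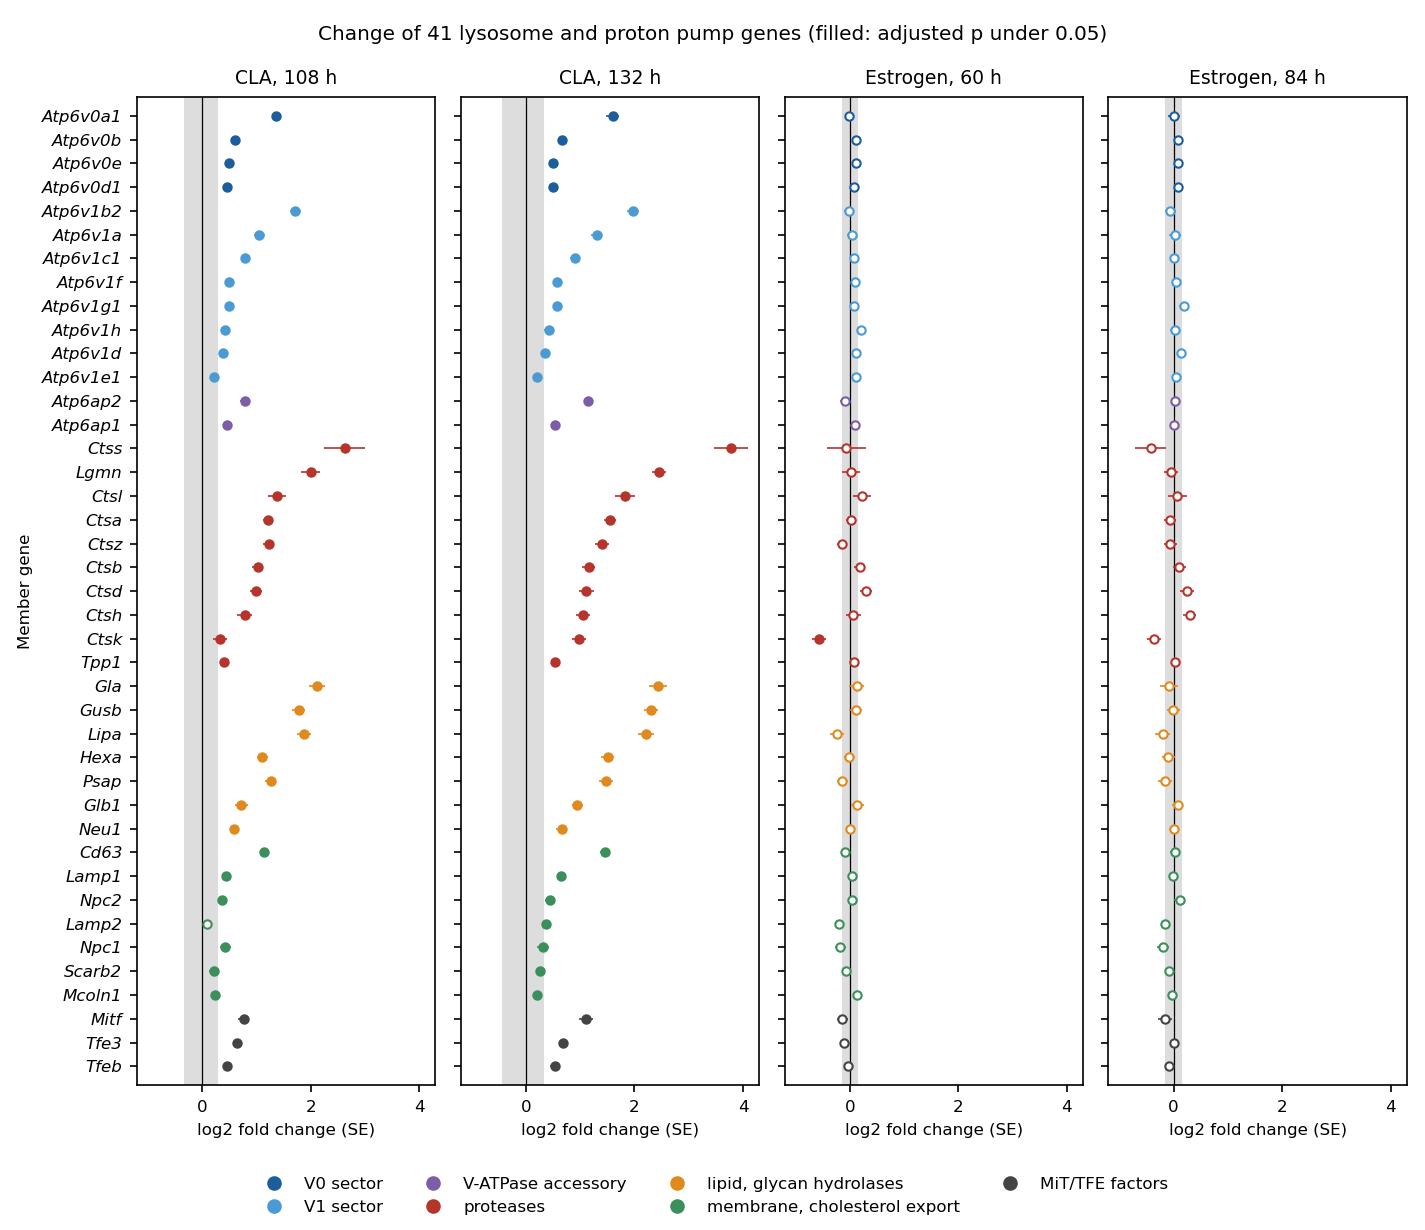
Log2 fold change (horizontal axis, with its standard error) of the 41 tested members in 4 comparisons, coloured by class. Filled points passed an adjusted p of 0.05 in edgeR, and the grey band spans the middle quartiles of all genes tested. CLA points sit to the right of 0 at both times, and estrogen points scatter around it with Ctsk alone filled at 60 h.

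The V0 sector, which forms the proton channel, rose by a median of 0.55 log2 units at 108 h and 0.58 at 132 h. Its largest rise was in Atp6v0a1, the a subunit that anchors the pump and guides its placement. Its library-scaled counts (CPM) in the 5 controls at 132 h were 146, 143, 154, 162 and 156. In the 5 CLA libraries they were 339, 554, 484, 378 and 577. The lowest CLA library stood far above the highest control, and the rise was 1.60 ± 0.12 log2 units (SE, edgeR adjusted p = 1.7e-09), or 3.04-fold. At 108 h the controls spanned 139 to 159.7 CPM and the CLA libraries 331 to 438 CPM, a rise of 1.36 ± 0.08. The smallest V0 rise at 132 h was in Atp6v0d1, which couples the rotor to the channel ring, with 104 to 117 CPM in controls and 139 to 181 CPM with CLA (0.50 ± 0.06, edgeR adjusted p = 1.6e-06). Atp6v0b, a proteolipid of the ring, rose by 0.61 and 0.67 at 108 h and 132 h, and Atp6v0e, a small subunit of the sector, by 0.49 and 0.50. Thus Atp6v0a1 gained more than the other tested V0 subunits, whose rises lay close together.

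The remaining V0 member, Atp6v0c, encodes the main proteolipid of the ring and could not be tested, since the count table gave it 0 to 5 counts per library. Its deposited RPKM values were not near 0, at 2.22 ± 1.69 in controls and 6.28 ± 1.69 with CLA at 132 h (SD, n = 5 each). For this gene CPM divided by RPKM was 0.0175, against 0.817 to 16.01 for the other members, so its counts and its RPKM are not on a common footing. Its level is uncertain, and how reads of near-identical copies were counted is not given in the sources used here.

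In the V1 sector, which holds the ATP-splitting head, the subunits of the head gained most. Atp6v1b2, the B subunit of the head, had 106, 112, 106, 104 and 112 CPM in controls at 108 h. With CLA it had 332, 308, 353, 477 and 305 CPM. At 132 h the controls held 101, 109, 110.3, 105 and 114 CPM and the CLA libraries 299, 489.6, 487, 361 and 499.7 CPM. The groups did not overlap at either time, the control values were tight, and the rises were 1.72 ± 0.10 and 1.97 ± 0.11 log2 units (edgeR adjusted p = 3.4e-10 and 5.1e-11). Atp6v1a, the catalytic A subunit beside it in the head, rose by 1.06 and 1.30 at the same times. Atp6v1c1, the C subunit that helps join V1 to V0, rose by 0.80 and 0.90. The smallest rise in the sector was in Atp6v1e1, a subunit of the outer stalk. It had 116, 119, 128, 137 and 133 CPM in controls and 149, 141, 141, 137 and 167 CPM with CLA at 132 h. The highest control reached the lowest CLA library, and the rise was 0.20 ± 0.07 (edgeR adjusted p = 0.017). This call was lost with upper-quartile scaling, without CLA replicate 5 and without the 9 libraries high in skin genes, with adjusted p-values of 0.054 to 0.36 over the settings that lost it. Leaving out those 9 libraries removed control replicates 1, 2 and 3 at 132 h, so that fit held fewer controls. The stalk and rotor subunits Atp6v1g1, Atp6v1d and Atp6v1f and the regulatory subunit Atp6v1h rose by 0.39 to 0.49 at 108 h and 0.36 to 0.58 at 132 h. Atp6v1h overlaps Rgs20 on the other strand, and whether the counting used strand is not given in the sources used here.

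Both accessory proteins of the pump rose. Atp6ap2, also known as the prorenin receptor, had 39.7 to 43.7 CPM in controls and 74.2 to 108 CPM with CLA at 132 h, a rise of 1.15 ± 0.08 (edgeR adjusted p = 7.8e-10) after 0.79 at 108 h. Atp6ap1, which aids pump assembly, had 135 to 153 CPM and 186 to 249 CPM, a rise of 0.53 ± 0.07 (edgeR adjusted p = 1.8e-06). Neither overlapped between the groups.

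The isoforms of the pump that are restricted to certain tissues, which are no members, were mixed. Of 10 listed, 8 were tested, and CLA raised 2 at each time, while 1 fell at 108 h and 2 at 132 h. Tcirg1, the a3 subunit known from osteoclasts and macrophages, rose by 1.45 ± 0.17 and 1.95 ± 0.14 log2 units, with 57.7 to 72.1 CPM in controls and 173 to 324 CPM with CLA at 132 h. Atp6v0d2, the d2 subunit of the same cells, had 0.885 to 6.93 CPM in controls and 90.1 to 185 CPM with CLA at 108 h. At 132 h it had 0.733 to 1.71 and 96.0 to 223 CPM. Its ubiquitous counterpart Atp6v0d1 rose by 0.45 and 0.50 log2 units in the same libraries. The log2 fold changes of the d2 isoform, 5.53 and 7.27, rest on few control counts. Atp6v1c2, an epithelial C subunit, fell by 0.65 and 1.68 (edgeR adjusted p = 0.048 and 0.0032), and Atp6v0a4, a kidney isoform, fell by 1.83 at 132 h (edgeR adjusted p = 0.040). Atp6v0a2, Atp6v0e2, Atp6v1b1 and Atp6v1g2 passed the test at neither CLA time, with changes of -0.25 to 0.53 at 132 h, and Atp6v1e2 and Atp6v1g3 were too low to test.

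All 10 proteases rose, by a median of 1.12 and 1.28 log2 units, and they held the largest change of all members. Ctss encodes cathepsin S, the protease of antigen-presenting cells that trims the invariant chain. At 108 h its controls had 67.5, 98.0, 84.9, 55.7 and 59.8 CPM and the CLA libraries 418, 397, 448, 609 and 390.0 CPM. At 132 h its controls had 52.7, 34.7, 21.1, 28.0 and 67.7 CPM and the CLA libraries 383, 686, 638, 402 and 708 CPM. No CLA library came near a control, and the rises were 2.63 ± 0.38 and 3.77 ± 0.31 log2 units, or 6.17-fold and 13.6-fold (edgeR adjusted p = 2.0e-05 and 1.9e-08). Lgmn, the asparagine-specific legumain that processes other cathepsins, stood apart too, with 96.0 to 138 CPM in controls and 470.1 to 777 CPM with CLA at 132 h (2.46 ± 0.13, edgeR adjusted p = 5.1e-11). Cathepsin L (Ctsl), a broad endopeptidase, rose by 1.39 and 1.83 at 108 h and 132 h, and the protective protein cathepsin A (Ctsa), which also stabilises Neu1 and Glb1, by 1.22 and 1.56. Ctsz, a carboxypeptidase, rose by 1.22 and 1.40, Ctsb by 1.03 and 1.16, the aspartic protease Ctsd by 1.003 and 1.11, and the aminopeptidase Ctsh by 0.79 and 1.05. The smallest rise at 132 h was in Tpp1, a tripeptidyl peptidase, with 132 to 149.6 CPM in controls and 174 to 257 CPM with CLA (0.54 ± 0.08, edgeR adjusted p = 1.7e-05). Several of these genes overlap others on the opposite strand, Ctsa with Pltp, Ctsb with Fdft1 and Ctsz with Nelfcd, so their counts are less certain.

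Ctsk, the collagen-degrading cathepsin K of osteoclasts and fibroblasts, was the member that fell with estrogen and rose with CLA. At 60 h its controls had 80.3, 92.1, 77.5, 90.2 and 94.4 CPM and the estrogen libraries 64.1, 57.8, 59.6, 66.1 and 46.5 CPM. All 5 estrogen libraries lay below all 5 controls, and Ctsk fell by 0.56 log2 units (SE 0.13, edgeR adjusted p = 0.016). At 84 h controls spanned 71.3 to 91.2 CPM and estrogen libraries 45.3 to 76.3 CPM, which overlapped, with a difference of -0.36 ± 0.13 (edgeR adjusted p = 0.10). With CLA at 108 h it rose by 0.33 ± 0.12 (edgeR adjusted p = 0.035) with 66.1 to 93.5 CPM in controls and 78.7 to 126 CPM with CLA, and those groups overlapped. That call was lost in 10 of 20 alternatives, among them upper-quartile scaling, no filter on low counts, a fit with animal run as a covariate, a fit of the 2 groups alone, and leaving out control replicate 2, 3, 4 or 5 or CLA replicate 2 or 4. At 132 h the groups no longer overlapped, with 63.6 to 80.5 CPM against 109 to 168 CPM and a rise of 0.97 ± 0.13 (edgeR adjusted p = 2.9e-06). The difference between the CLA effect at 108 h and the estrogen effect at 60 h was 0.89 ± 0.18 (edgeR adjusted p = 9.3e-04).

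The lipid and glycan hydrolases had the highest class median, 1.27 and 1.503 log2 units. Gla encodes alpha-galactosidase A, which removes galactose from glycolipids and is deficient in Fabry disease. Its controls at 132 h had 10.1, 7.79, 9.34, 9.94 and 12.7 CPM and its CLA libraries 36.3, 68.0, 59.1, 41.0 and 67.4 CPM. At 108 h the controls had 8.70, 9.46, 10.3, 10.8 and 11.5 CPM and the CLA libraries 37.6, 43.6, 44.2, 58.0 and 35.8 CPM. The groups were far apart at both times, with rises of 2.11 ± 0.15 and 2.44 ± 0.17 (edgeR adjusted p = 2.7e-09 and 6.8e-10). Gusb, the beta-glucuronidase, rose by 1.78 and 2.30, and Lipa, the acid lipase that frees cholesterol and fatty acids from lipoprotein and droplet lipid, by 1.88 and 2.22. Hexa, a subunit of beta-hexosaminidase, rose by 1.11 and 1.503, and Psap, whose products activate sphingolipid breakdown, by 1.27 and 1.48. Glb1, the acid beta-galactosidase, rose by 0.72 and 0.95. The smallest rise was in the sialidase Neu1, with 35.3 to 45.5 CPM in controls and 55.0 to 76.0 CPM with CLA at 132 h (0.66 ± 0.10, edgeR adjusted p = 8.9e-06).

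Genes of the lysosomal membrane and of cholesterol export moved least, with a class median of 0.36 and 0.37. Cd63, a tetraspanin of late endosomes and secreted vesicles, stood apart from the rest of its class. Its controls at 132 h had 49.1, 54.6, 59.9, 61.6 and 56.8 CPM and its CLA libraries 125, 159.8, 172, 136 and 190.1 CPM, a rise of 1.46 ± 0.10 (edgeR adjusted p = 4.5e-10) after 1.14 ± 0.07 at 108 h. Lamp1 and Lamp2 encode the main glycoproteins that line the membrane, and Lamp1 rose by 0.45 and 0.65. Lamp2 at 108 h had 321, 302, 335, 311 and 317 CPM in controls and 339, 295, 319.9, 413 and 335 CPM with CLA. These groups overlapped, and Lamp2 was the member not called at 108 h (0.10 ± 0.07, edgeR adjusted p = 0.28). At 132 h it had 239 to 286 CPM in controls and 303 to 382 CPM with CLA, a rise of 0.37 ± 0.07 (edgeR adjusted p = 1.4e-04). Scarb2, an integral membrane protein that also serves as a sorting receptor, rose by 0.21 and 0.26. The cholesterol exporters Npc1 and Npc2 rose by 0.43 and 0.32 and by 0.36 and 0.44, and Npc1 overlaps 3110002H16Rik on the other strand. The calcium channel Mcoln1 had the smallest rise of the class at 132 h, with 55.1 to 64.6 CPM in controls and 61.4 to 85.3 CPM with CLA (0.21 ± 0.07, edgeR adjusted p = 0.017). At 132 h the calls of Mcoln1, Npc1 and Npc2 were lost without the 9 libraries high in skin genes, and those of Mcoln1 and Npc1 also without CLA replicate 5. Both also lost their call with animal run as a covariate, with upper-quartile scaling and in a fit of the 2 groups alone. Leaving out the 9 libraries removed control replicates 1, 2 and 3 at 132 h, so that fit held fewer controls. The call of Mcoln1 was lost too without control replicate 1, and that of Npc1 without CLA replicate 2, control replicate 3 or control replicate 5. At 108 h that of Scarb2 was lost with upper-quartile scaling, without those 9 libraries, without control replicate 1 and without CLA replicate 4.

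The MiT/TFE factors, which act on lysosomal promoters after their protein enters the nucleus, rose in RNA by a median of 0.64 and 0.69. Tfeb had 26.5, 26.6, 27.9, 28.5 and 29.9 CPM in controls at 132 h and 36.7, 42.7, 39.0, 35.6 and 49.2 CPM with CLA (0.53 ± 0.08, edgeR adjusted p = 2.3e-05). Tfe3 had 106, 99.9, 97.1, 105 and 102 and 155, 169.7, 159.7, 151 and 197 CPM (0.69 ± 0.06, edgeR adjusted p = 1.3e-08). Mitf, best known from pigment cells, osteoclasts and mast cells, had 33.2, 35.3, 32.9, 22.5 and 30.8 and 58.8, 80.4, 70.3, 60.6 and 68.0 CPM (1.11 ± 0.13, edgeR adjusted p = 5.0e-07). None of the 3 overlapped between control and CLA at 132 h, and at 108 h they rose by 0.45, 0.64 and 0.76. RNA levels say nothing of where the proteins were. Among 34 tested members with a RefSeq promoter, the 10 with CACGTG had a median CLA rise of 1.21 at 132 h and the 24 without it 0.67. The ranges overlapped almost wholly, 0.21 to 2.46 against 0.20 to 3.77. Of the genes shown above, Lgmn rose by 2.46 at 132 h, Atp6v1a by 1.30, Glb1 by 0.95 and Lamp1, with 4 matches, by 0.65.

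**Figure D2:**
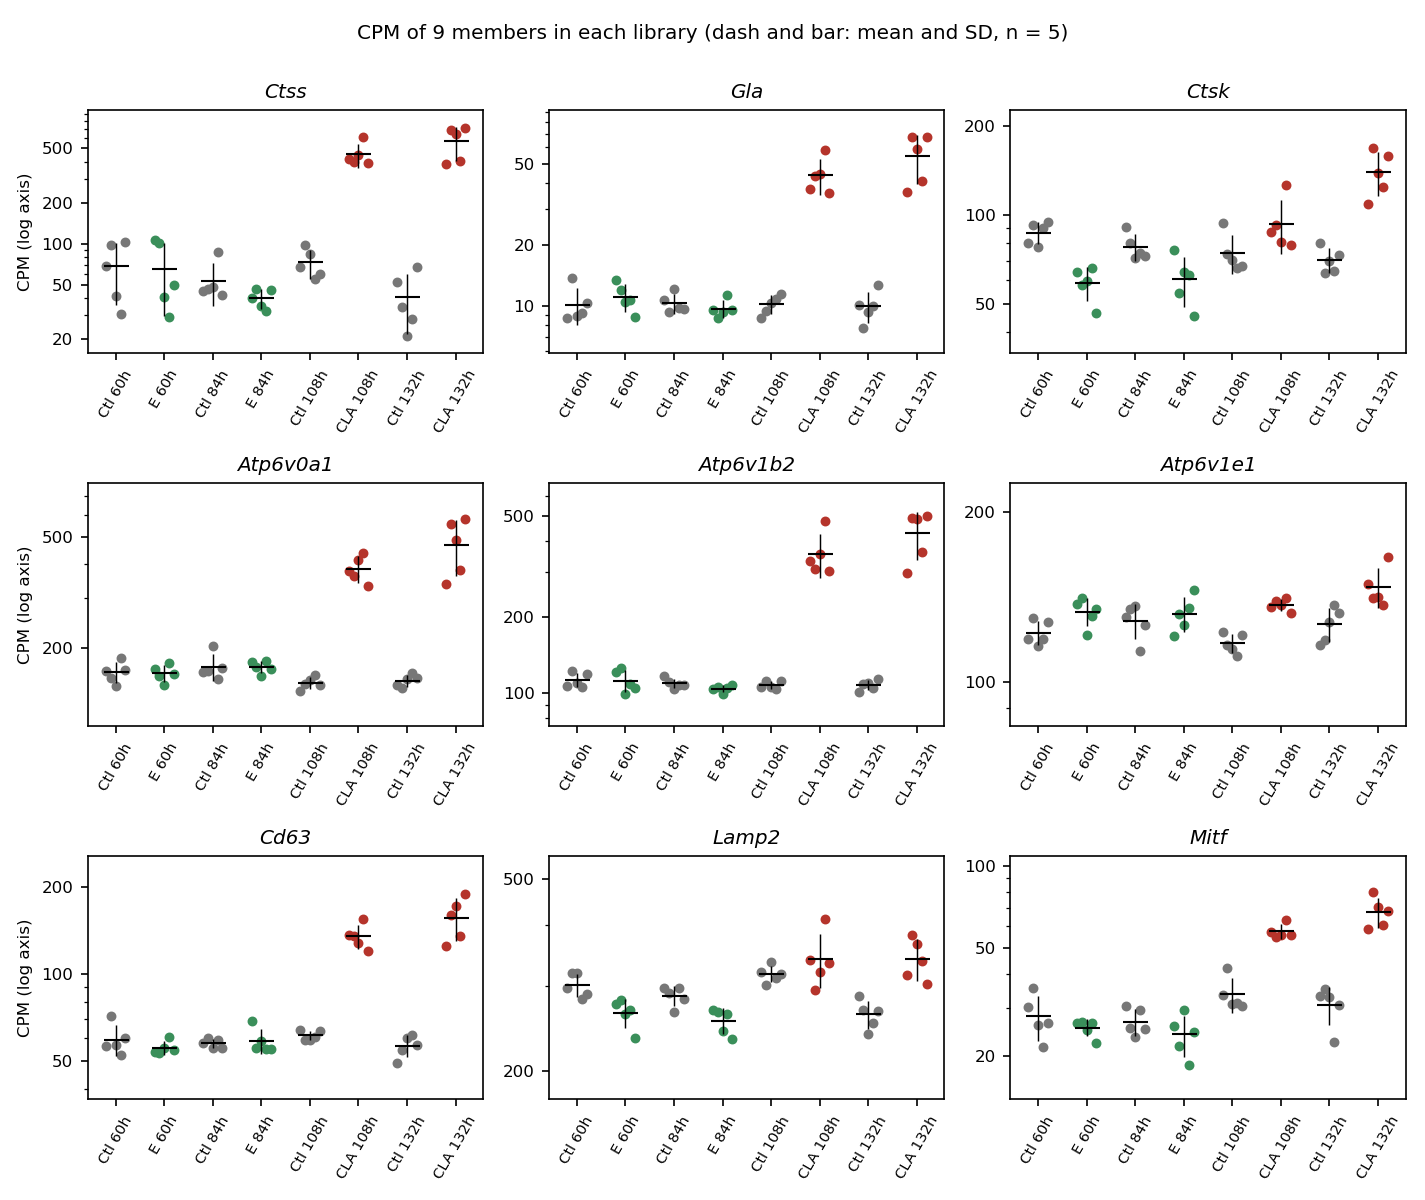
CPM (log axis) of 9 members in each of the 40 libraries, by group, with controls grey, estrogen green and CLA red. Dashes and bars give the mean and SD of 5 libraries. Ctss, Gla, Atp6v0a1, Atp6v1b2, Cd63 and Mitf lie above their controls in every CLA library, while Lamp2 and Ctsk overlap at 108 h and Atp6v1e1 at 132 h.

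Set beside each other by median log2 fold change, hydrolases and proteases were at the top and membrane genes at the bottom at both times. At 132 h the medians were 1.503 for hydrolases, 1.28 for proteases, 0.84 for the accessory proteins, 0.69 for the factors, 0.58 for V0, 0.58 for V1 and 0.37 for membrane genes. The 24 genes of lysosomal content and membrane had a median of 1.13 and the 14 tested pump genes one of 0.58. A rise of at least 1 log2 unit at 132 h was called for 8 of 10 proteases, 5 of 7 hydrolases, 2 of 8 V1 subunits, 1 of 4 V0 subunits, 1 of 2 accessory proteins, 1 of 3 factors and 1 of 7 membrane genes. Classes overlapped widely: the pump genes Atp6v0a1 and Atp6v1b2 rose more than, among others, Ctsb, Ctsd, Ctsh, Ctsk, Tpp1, Glb1 and Neu1. Classes were not tested against each other, since genes are not replicates.

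Compared per length, the members spanned a wide range. Mean RPKM in controls at 132 h ran from 1.88 for Mitf to 435 for Psap, followed by Ctsd at 390.2 and Ctsb at 279. With CLA Psap reached 1412 ± 361, Ctsd 944 ± 227 and Ctsb 705 ± 168 RPKM (SD, n = 5). The genes with the largest fold rises began below those levels: Ctss went from 19.3 ± 8.61 to 317 ± 95.4 RPKM, Lgmn from 34.6 ± 4.66 to 216 ± 47.3, and Gla from 2.23 ± 0.374 to 13.5 ± 3.83. Low starting levels did not always go with large rises. Tfeb began at 3.18 and Npc1 at 3.97 RPKM in controls, and they rose by 0.53 and 0.32 log2 units. In controls Ctss stood below Tpp1 and Ctsk per length, and with CLA far above both. Among V1 subunits, Atp6v1b2 at 14.6 ± 0.727 RPKM stood below Atp6v1e1 at 21.5 ± 0.549 in controls. With CLA the order was turned, at 65.4 ± 15.7 against 27.5 ± 1.91 RPKM. The log2 ratio of mean RPKM had the same sign as the count result for every tested member at both CLA times, with the widest gap in Cd63 (0.31 at 108 h and 0.50 at 132 h).

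**Figure D3:**
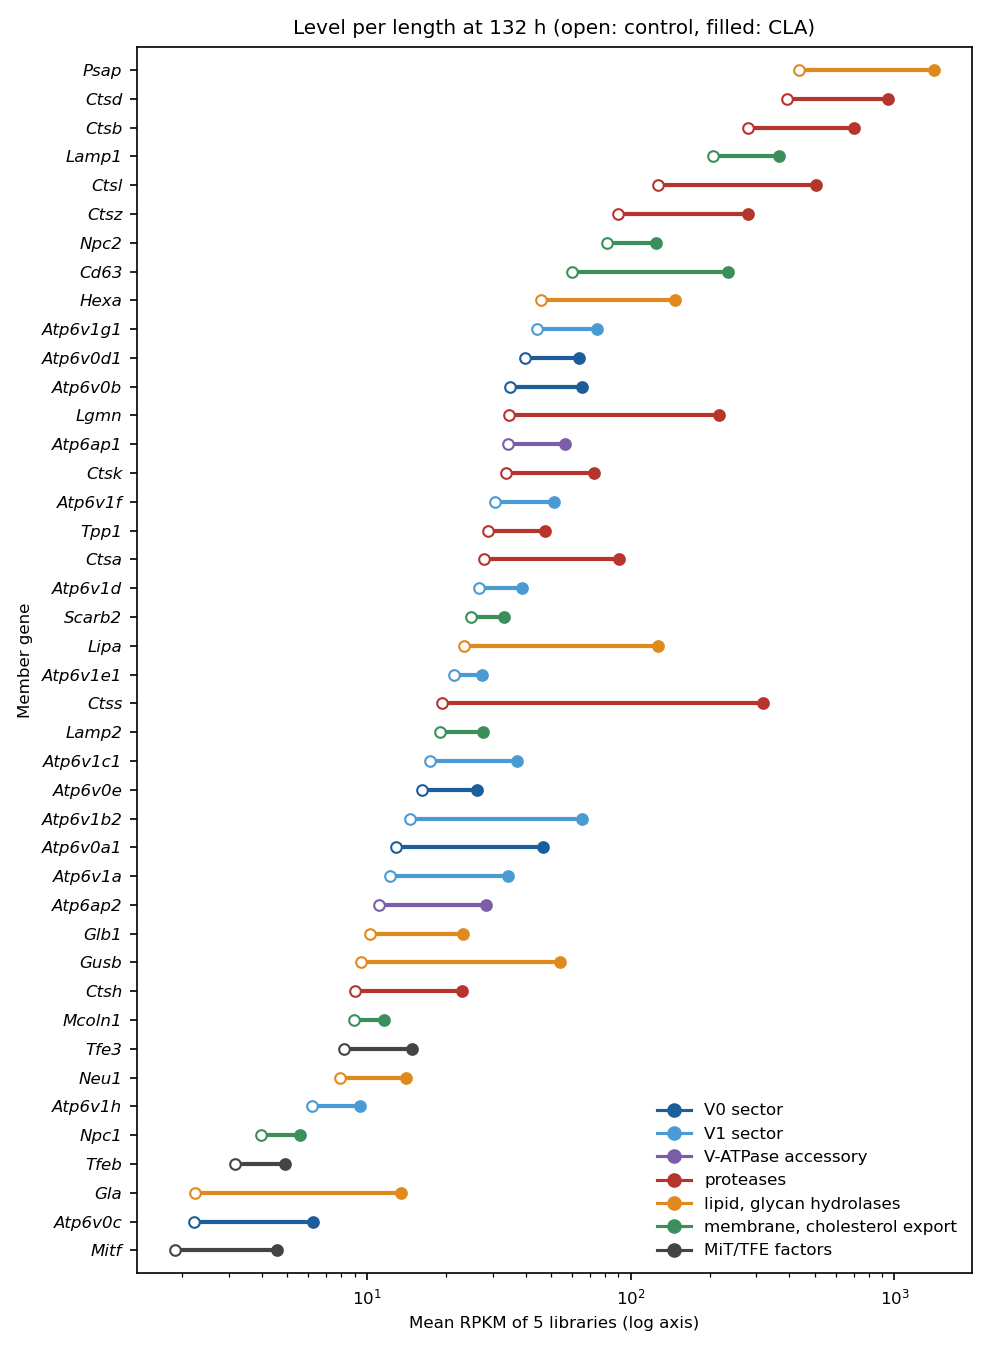
Mean RPKM of each member at 132 h on a log axis, open for controls and filled for CLA, coloured by class and sorted by the control level. Every line runs to the right, and those of Ctss, Lgmn, Gla, Gusb and Lipa are the longest.

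The members took 0.884 to 0.944% of a library's counts in controls at 108 h and 1.70 to 2.44% with CLA. At 132 h the shares were 0.860 to 0.925% and 1.67 to 2.76%. With estrogen the share was 0.895 to 1.07% at 60 h, against 0.849 to 0.978% in its controls, which overlapped. At 84 h it was 0.931 to 1.01% against 0.897 to 0.935%, and 4 of 5 estrogen libraries lay above every control. The protease share at 84 h did not overlap, at 0.457 to 0.510% with estrogen and 0.401 to 0.444% in controls. The share of the 15 pump genes did not overlap there either, at 0.1198 to 0.1277% and 0.1154 to 0.1197%. The hydrolase share at 84 h was lower with estrogen on average, at 0.181% against 0.194%, and its libraries overlapped. Taken alone, the V0, V1, accessory, membrane and factor shares overlapped at 84 h too. These shares of raw counts were not tested. Proteases made up 0.414 ± 0.0147% of counts in controls at 132 h and 1.15 ± 0.275% with CLA (SD, n = 5), and the 15 pump genes 0.118 ± 0.00203% and 0.256 ± 0.0389%.

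The members moved together from mouse to mouse within the CLA groups. At 108 h, CLA replicate 4 had the highest value of its group in 36 of 41 members. At 132 h, CLA replicates 1 and 4 were the lowest pair in 36 of 41 members. Such ranks were not counted over all genes, so they describe the members and do not set them apart. For Psap the 5 CLA libraries at 132 h had 2886, 5081, 4563, 3359 and 5324 CPM, and for Lgmn 470.1, 688, 652, 499 and 777 CPM. Replicates 1 and 4 were low in both. Without CLA replicate 4 at 108 h, 38 members still rose, and with each library left out in turn at 132 h 38 to 41 did, the lowest count without CLA replicate 5.

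Macrophage markers moved with the members. Of 17 macrophage genes listed, 16 were in the tables, none at 0 throughout, and 14 rose at 108 h and 15 at 132 h, with medians of 1.32 and 1.86 log2 units. None passed the test with estrogen at 60 h or 84 h. Their summed level was 1089.7 to 1969 CPM in controls and 3190.1 to 4689 CPM with CLA at 108 h, and 733 to 1307 against 3246 to 6036 CPM at 132 h. CLA replicates 1 and 4 at 132 h, low for the members, were also the lowest for this sum. Lyz2, the lysozyme of macrophages, rose by 1.45 and 2.61 log2 units. Of 10 adipocyte genes 8 fell at each CLA time. Fabp4 was not among them, at -0.15 and -0.24 (edgeR adjusted p = 0.18 and 0.098). The adipocyte genes' summed level at 132 h was 25612 to 36869.9 CPM in controls and 17225 to 23753 CPM with CLA. At 132 h all 6 fibroblast genes rose, 11 of 11 skin and hair genes, 5 of 6 endothelial and 4 of 5 basal genes fell, 1 of 9 luminal genes rose, and 0 of 6 muscle, 0 of 7 lymphocyte and 1 of 4 neutrophil genes (a fall) passed the test. Of 4 osteoclast genes 2 rose and Acp5 fell. The leading genes of these lists by RPKM were at 0.67 ± 0.13 for Col3a1 (fibroblast), -1.14 ± 0.11 for Cdh5 (endothelium), -3.88 ± 0.99 for Krt5 and -7.05 ± 2.03 for Krt71, each past the test. Krt19 (1.09 ± 0.51), Acta1 of muscle (-4.09 ± 1.88), Cd79a of B cells (-0.70 ± 0.67) and S100a9 of neutrophils (0.15 ± 0.42) did not pass it. Control replicates 1, 2 and 3 at 132 h were among the libraries high in skin genes. Summed skin and hair genes spanned 1.81 to 2101 CPM in controls and 1.47 to 22.8 CPM with CLA at 132 h. Summed basal genes spanned 20.7 to 939 CPM and 13.5 to 51.9 CPM. The falls of skin, hair and basal genes without those libraries are not given here. The part of these cell types in the members' rise was not tested.

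**Figure D4:**
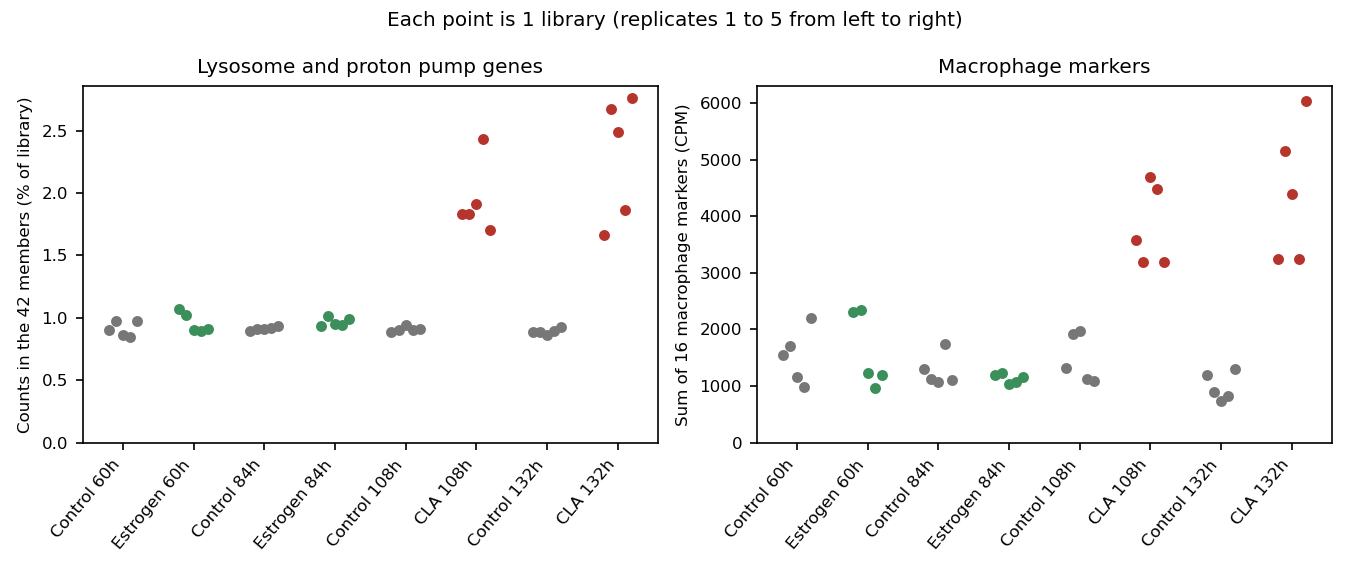
Percent of counts in the 42 members (left) and summed CPM of 16 macrophage markers (right), with 1 point per library. In both panels every CLA library lies above every other library, and CLA replicates 1 and 4 are the lowest of their group at 132 h.

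Estrogen left the members close to their controls. At 60 h, 0 of 41 members rose and 1, Ctsk, fell, against 4.07% and 2.42% of all genes, and at 84 h 0 rose and 0 fell, against 3.45% and 1.97%. At an unadjusted p under 0.05, edgeR gave 6 higher and 2 lower members at 60 h, against 12.1% and 10.9% of all genes. At 84 h it gave 3 and 2, against 11.2% and 10.2%. DESeq2 called 1 member higher and 1 lower at 60 h and 0 in either direction at 84 h. The share of all genes that DESeq2 called is not given here. Median changes were 0.04 and 0.01 log2 units, and the extremes at 84 h were Ctss at -0.42 ± 0.29 and Ctsh at 0.29 ± 0.12. Ctsd, an estrogen-responsive gene in breast cancer cell lines, had 1364, 1422, 1212, 1403 and 1583 CPM in controls at 60 h and 1913, 2074, 1361, 1650.2 and 1626 CPM with estrogen. These groups overlapped, with a difference of 0.31 ± 0.11 (edgeR adjusted p = 0.096), and at 84 h it was 0.25 ± 0.14 (edgeR adjusted p = 0.31). All 5 estrogen libraries lay below all 5 controls for Ctsk, Lipa and Lamp2 at 60 h and for Psap at 84 h, against 2.74% and 3.25% of genes. They lay above them for 0 members at either time, against 3.60% and 4.79% of genes.

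Over 60 h and 84 h together, the 10 control and 10 estrogen libraries spanned much the same levels. In the pump the spans were 145 to 203 CPM in controls and 146 to 179.5 CPM with estrogen for Atp6v0a1, and in the same order 107 to 118 and 112 to 127 for Atp6v0d1, 104 to 123 and 98.99 to 126 for Atp6v1b2 and 114 to 137 and 121 to 146 for Atp6v1e1. For the accessory proteins they were 142 to 151 CPM in controls and 139 to 164 CPM with estrogen for Atp6ap1, and 39.9 to 49.6 and 39.8 to 44.1 for Atp6ap2. Of the enzymes, the spans were 30.5 to 104 CPM in controls and 29.3 to 106 CPM with estrogen for Ctss, then 139.8 to 156 and 136 to 166 for Tpp1, 8.68 to 13.6 and 8.67 to 13.3 for Gla and 36.6 to 45.7 and 37.5 to 48.6 for Neu1. At the membrane they were 52.3 to 71.5 CPM in controls and 53.2 to 68.7 CPM with estrogen for Cd63, and 53.9 to 65.6 and 58.4 to 66.2 for Mcoln1 and 265 to 319 and 233 to 281 for Lamp2. For the factors they were 26.4 to 31.1 CPM in controls and 24.8 to 30.9 CPM with estrogen for Tfeb, then 100.4 to 135 and 100.2 to 117 for Tfe3 and 21.7 to 35.5 and 18.5 to 29.4 for Mitf. The control and estrogen spans overlapped for each of these 16 genes. Spans pooled over times overlap more readily than those of a single time. At 60 h alone, every estrogen library lay below every control for Lamp2.

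The response to CLA exceeded that to estrogen for most members, although the times differ. The CLA effect at 108 h was larger than the estrogen effect at 60 h for 37 of 41 members, against 17.2% of genes, and the effect at 132 h was larger than that at 84 h for 38, against 19.1%. It was smaller for 0 members in either pair, against 14.9% and 18.9% of genes. The largest differences were in Ctss, 2.69 ± 0.52 and 4.19 ± 0.42 log2 units (edgeR adjusted p = 8.5e-04 and 7.8e-07). Atp6v1e1, Mcoln1, Scarb2 and Atp6v1h missed the threshold in the earlier pair, with differences of 0.10, 0.10, 0.27 and 0.21. Atp6v1e1, Mcoln1 and Npc2 missed it in the later pair, at 0.16, 0.24 and 0.34.

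The CLA effect was not shown to differ between 108 h and 132 h. In edgeR, 0 of 41 members passed the test of that difference, as did 0% of all 17852 genes, and DESeq2 called 0 members. At an unadjusted p under 0.05, 11 of 41 members had a larger effect at 132 h and 0 a smaller one, against 6.63% and 5.79% of all genes. Signs were not counted over all genes, and among the members 37 of 41 differences were positive. The largest was in Ctss, 1.16 ± 0.47 log2 units (edgeR adjusted p = 0.30), followed by Ctsk at 0.65 ± 0.18 (edgeR adjusted p = 0.14) and Gusb at 0.53 ± 0.18. The smallest was in Npc1, -0.10 ± 0.16. For the estrogen effect at 84 h against 60 h, edgeR called 0 members, 0 reached an unadjusted p under 0.05, DESeq2 called 0, and 0.00560% of genes were called. Among the 4 control groups 3 of 41 members differed over time, against 13.4% of genes: Atp6ap2, Lamp2 and Tfe3, with edgeR adjusted p-values of 0.029, 0.032 and 0.025. Without the 9 libraries high in skin genes 0 members did. Counts over all genes are not given here for that fit or for the DESeq2 fits.

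Other genes of the pathway, listed by function with earlier results of these data known, went in both directions, with more rising than falling. Of 102 tested genes in 7 lists, CLA raised 54 and lowered 15 by 108 h, against 24.9% and 23.0% of all genes. By 132 h it raised 48 and lowered 19, against 27.0% and 29.0% of all genes. Among 8 other proteases 3 rose and 2 fell at each time. The exopeptidase Dpp7 rose by 1.11 ± 0.08 at 132 h, Scpep1 by 1.02 ± 0.10 and cathepsin C (Ctsc), which activates serine proteases of immune cells, by 1.21 ± 0.16. Cathepsin F (Ctsf) fell by 0.58 and 0.53 with CLA, and also by 0.21 and 0.28 with estrogen (edgeR adjusted p = 0.031 and 0.023). Among 26 other hydrolases 14 rose and 4 fell at 132 h. The acid nuclease Dnase2a rose by 1.55 ± 0.13 and the sulfatase Arsb by 0.93 ± 0.09, while Acp5, the tartrate-resistant phosphatase, fell by 0.91 and 1.18.

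Among 17 other membrane genes 11 rose and 3 fell at each CLA time. Cd68, a macrophage relative of the Lamp proteins, had 23.8 to 40.6 CPM in controls and 284 to 537 CPM with CLA at 132 h (3.64 ± 0.18, edgeR adjusted p = 5.1e-11). The cation channel Tpcn2 rose by 1.70 ± 0.15 and the transporter Mfsd1 by 0.98 ± 0.09, and Laptm4b fell by 0.94. Of 9 sorting genes 4 rose and 3 fell at 132 h. The mannose 6-phosphate receptors M6pr and Igf2r, which carry hydrolases to the lysosome, rose by 0.78 and 0.71, and Nagpa, which exposes their ligand, by 0.49. Sort1, a sorting receptor of another kind, fell by 1.04 (edgeR adjusted p = 3.2e-10). Of 16 genes of nutrient sensing 9 rose and 1 fell: Fnip2, a folliculin partner, rose by 1.21, Tfec, a further MiT/TFE relative, by 2.11 ± 0.31, and Lamtor3 by 0.30, while the kinase gene Mtor fell by 0.62. Of 18 autophagy genes, 5 rose and 4 fell at 132 h, against 27.0% and 29.0% of all genes. The cargo receptor Sqstm1 rose by 1.496 and 1.24, Vps18 by 0.86 and Gabarap by 0.44, and Ulk1, which starts autophagy, fell by 0.48. Estrogen raised 3 of the 102 and lowered 1 by 60 h, against 4.07% and 2.42% of all genes. By 84 h it raised 0 and lowered 3, against 3.45% and 1.97% of all genes.

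**Figure D5:**
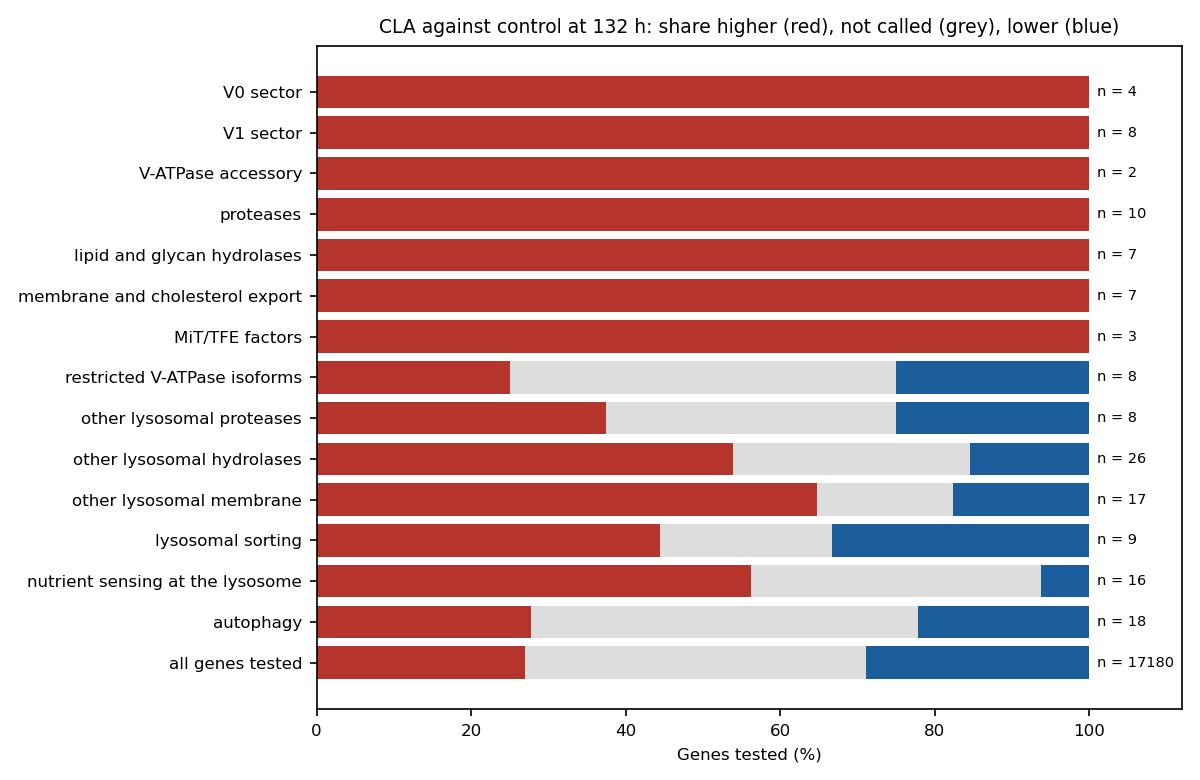
Percent of tested genes that rose (red), passed no threshold (grey) or fell (blue) with CLA at 132 h, for the 7 member classes, 7 further lists and all 17180 genes tested. The member bars are red throughout, and the further lists range from 25% (restricted pump isoforms) upward.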

How the data were processed

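RNA of 40 mammary glands was sequenced, 5 mice in each of 8 groups named by the labels. Per the labels' protocols, libraries were stranded, from poly(A) RNA of quality number 7.5 to 9.4, with 10 PCR cycles. The authors deposited whole-number counts per gene in 2 tables, an early (60 h, 108 h) and a late (84 h, 132 h) one, and RPKM values, scaled by gene length and library size, in 2 matching tables. The build was GRCm38, per the submitters' processing notes. Aligner, counter and use of strand: not given in the sources used here. 0 sample columns were left unused.

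Counts were tested with edgeR 4.0.16 (R 4.3.3): TMM scaling, filterByExpr (minimum count 10, minimum total 15), robust quasi-likelihood F test, Benjamini-Hochberg adjustment over all genes tested, threshold 0.05. The 4 groups of a table shared a spread estimate. Differences between times and controls over time used all 40 libraries. The SE of a log2 fold change was its absolute value divided by the root of F. CPM uses TMM scaling of all 40 libraries. Depths of 18183713 to 40026800 counts set the precision, and the code was tested on simulated data. The labels give each library its own animal number, and replicates are numbered here in accession order. Other settings tried were upper-quartile and RLE scaling, DESeq2 1.42.0, other filters, limma 3.58.1 on log2(RPKM + 0.1) and log2(RPKM + 1), the 2 groups alone, leaving out libraries, and animal run as a term.

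Members, lists and tests were chosen with earlier results of these data known. Full values are given for the members with the largest and smallest change of each class at 132 h, those called with estrogen and the MiT/TFE factors, and others were added for illustration after their values were seen. From the other lists all restricted pump isoforms and up to 4 genes with the smallest p at 132 h are named, and from the cell type lists the gene of highest mean RPKM. A gene that this rule names is not reported here.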

Additional observations from a re-analysis of the deposited data

Results flagged for a closer look

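In 22 of 328 sets of 5 libraries, 1 library lay apart from the other 4 by Dixon's criterion, where chance gives about 1 in 20, or 16.4. CLA replicate 4 at 108 h was high in 8 of these. It had 1508 CPM of Ctsl against 761 to 888 in the other 4, 609 of Ctss against 390.0 to 448, and 1034 of Lamp1 against 834 to 881. The pump genes Atp6v1b2 (477 CPM against 305 to 353), Atp6v1a (316 against 200.4 to 229), Atp6v1c1 (124 against 89.3 to 96.5) and Atp6v0e (109.9 against 98.4 to 102) were high in it too, as was Mitf (63.4 against 55.0 to 57.3). Its macrophage marker sum was 4473 CPM, second in its group to replicate 3 at 4689 CPM.

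Control replicate 3 at 108 h was high in Ctsl (404 CPM against 345 to 356), Ctsd (1356 against 1153 to 1211) and Atp6v1h (94.98 against 82.8 to 86.0). Control replicate 1 at 108 h was high in Ctsk (93.5 CPM) and Atp6v0e (77.5 CPM), and control replicate 2 in Mitf (42.3 CPM). Single libraries were high in Atp6v1h with CLA at 108 h (123 CPM, replicate 3), Atp6v1f with CLA at 132 h (78.6 CPM, replicate 5), Ctss in controls at 84 h (87.3 CPM, replicate 4) and Tfe3 in controls at 60 h (135 CPM, replicate 2). Cd63 was high in an estrogen library at 60 h (60.5 CPM, replicate 4) and in another at 84 h (68.7 CPM, replicate 1). Low libraries were control replicate 2 at 132 h for Ctsl (292 CPM) and control replicate 1 at 60 h for Atp6v1d (49.8 CPM).

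Atp6v0c, which the counts could not test, had a mean RPKM of 6.28 with CLA at 132 h against 2.22 in controls. The CLA libraries held 5.76, 5.96, 8.68, 4.08 and 6.91 RPKM and the controls 5.03, 1.44, 2.57, 1.23 and 0.860 RPKM, and the highest control overlapped the lowest CLA library.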

How the results depend on the processing

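None of the 82 called member results changed sign, while between counts and RPKM the sign differed for 2 members with estrogen at 60 h and 5 at 84 h, and the median of the MiT/TFE factors at 84 h went from -0.08 with RLE scaling to 0.03 in limma on RPKM. Of the 82, 76 kept their call under every alternative run and 6 lost it under at least 1, where adjusted p-values were 0.054 to 0.14 for Ctsk and 0.067 to 0.13 for Scarb2 at 108 h, and 0.057 to 0.15 for Npc1, 0.051 to 0.36 for Mcoln1, 0.054 to 0.36 for Atp6v1e1 and 0.059 for Npc2 at 132 h. The cause was not tested. Members rising with CLA numbered 38 to 40 at 108 h and 37 to 42 at 132 h over all alternatives, the lowest at 132 h without the 9 libraries high in skin genes and the highest, with Atp6v0c, in limma on RPKM. The fit without those 9 libraries held fewer controls. Leaving out 1 library at a time gave 38 to 40 and 38 to 41, while 3972 to 4373 and 4364 to 4616 of all genes rose. In the settings that left out no library of the 2 groups, 3592 to 5322 of all genes rose at 108 h and 4011 to 6523 at 132 h. For estrogen at 60 h the count of members rising was 0 in the main edgeR fit with TMM scaling and 2 in edgeR with upper-quartile scaling. It was 1 in DESeq2, and 1 in limma with either pseudocount. At 84 h it was 0 in the main edgeR fit, 2 in limma on log2(RPKM + 0.1) and 1 on log2(RPKM + 1). Counts over all genes with upper-quartile scaling, DESeq2 and limma are not given here for estrogen. The member counts of those settings therefore stand without a background. Leaving out 1 library gave 0 to 2 rising at 60 h, and 0 to 1 rising and 0 to 1 falling at 84 h. Of all genes, 215 to 745 rose at 60 h in those fits, and 339 to 723 rose and 100 to 429 fell at 84 h. Controls over time lost all 3 calls (0) without the 9 libraries, with fewer samples in the fit. DESeq2 was not run for controls over time. Limma on log2(RPKM + 0.1) moved the median of all genes at 132 h to 0.13 and that of the members to 1.12. Within runs of animal numbers, 41 of 41 members were higher with CLA at 108 h in both shared runs, and at 132 h 41, 40 and 41 of 41 in the 3 shared runs, with Mcoln1 at -0.03 in the run of 1 CLA and 2 control libraries. These signs were not counted over all genes, so they describe the members only. With run as a term 3 of 81 CLA calls were lost, those of Ctsk at 108 h and of Mcoln1 and Npc1 at 132 h. No paired analysis was possible because replicate numbers were given in accession order and pair no mice. Atp6v0c had at most 5 counts a library although its RPKM was not near 0, and the reason was not tested.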
